A study of Macaca fascicularis with 22 samples.

Results

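The 8 arrays labelled umbilical cord, of 22 in the series, compared neonates of lower birth weight (LBW) with neonates of average birth weight (ABW) in the cynomolgus macaque, Macaca fascicularis. They were chosen by their titles alone, which put 4 arrays in Cord_Treated (LBW, birth weight between the 5th and 25th centile) and 4 in Cord_Control (ABW, between the 50th and 75th centile). The groups differ by birth weight and by no agent, and "treated" in the titles stands for the lower birth weight. Per the study's methods, dams were sedated with ketamine after birth for the cords to be taken, and neonates later for liver and muscle. The animals were female neonates of pregnancies by the same sire, per the study's text, and RNA came from whole tissue, so each array averages over all cells of the sample. The labels put all samples at birth, while the methods date the cords to birth and the liver and muscle to some days later. No label says which arrays share an animal, so p-values measure the spread between these arrays. The other arrays of the series carry the labels liver (6 arrays) and skeletal muscle (8 arrays). Each array is a 1-colour Agilent rhesus macaque array, on which a probe's brightness follows the amount of its transcript. A level given here is the log2 signal of a probe minus the 75th percentile of its array, so 75% of an array's values lie below 0, and values are listed in the order of replicates 1 to 4. A difference is always LBW minus ABW on the same log2 scale, and levels of different genes are not set against each other, because each probe has its own brightness.

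The levels went against the tissue label. APOA5, a regulator of plasma triglycerides made by the liver, lay between 2.69 and 5.47 on the 8 cord-labelled arrays, and between -7.18 and -5.95 on the 6 liver-labelled arrays. HGFAC, a plasma protease of hepatocyte origin, lay between 4.87 and 7.17 against -1.20 and -0.49. All 14 named plasma proteins of the liver had every cord-labelled array above every liver-labelled array, with a median difference of 6.96, and 7 of the 14 were not well above background on any liver-labelled array. COL1A1, the main chain of fibrillar collagen and abundant in connective tissue such as the cord's jelly, ran the other way, between -2.83 and -0.66 on the cord-labelled arrays and between 4.53 and 5.12 on the liver-labelled ones. MMP1, an interstitial collagenase, lay between -8.26 and -6.20 against 2.73 and 4.82. Among 18 matrix genes, every liver-labelled array was above every cord-labelled array for 11, the ranges overlapped for 6, and COL27A1 alone was higher on the cord-labelled arrays. The levels are thus those of liver on the arrays labelled cord, and of connective tissue on the arrays labelled liver. All arrays are named here by their label, and both the LBW and the ABW arrays of the cord label show the same pattern.

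**Figure D1:**
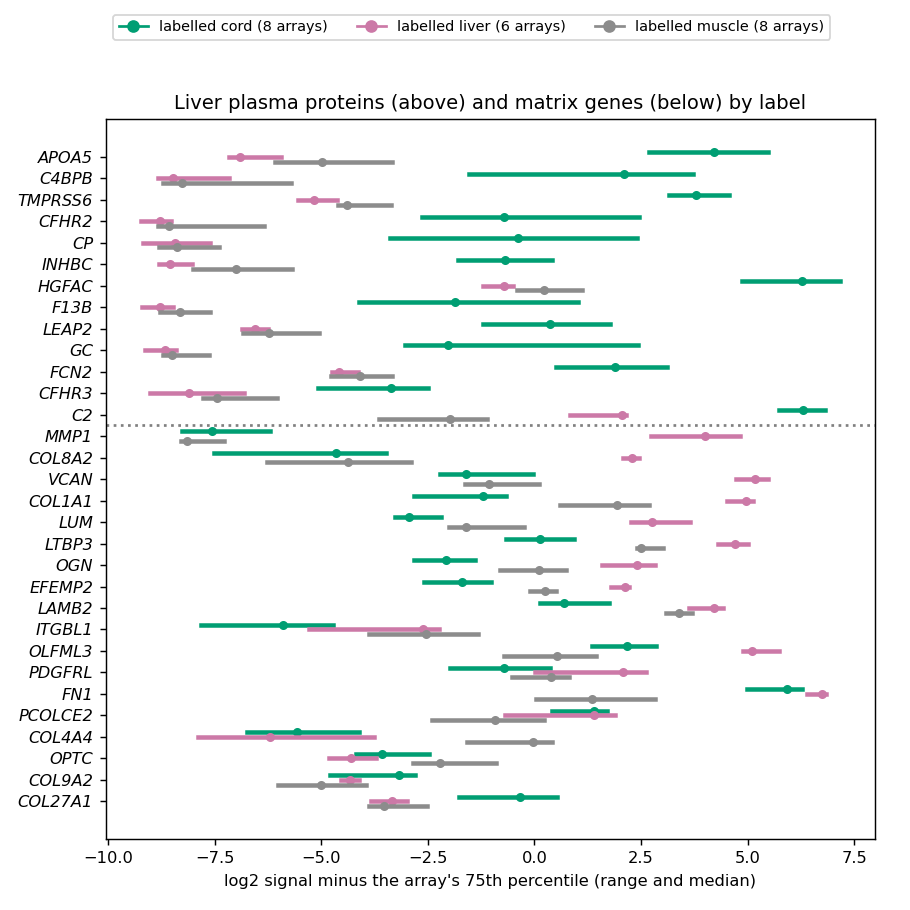
Levels of 13 liver plasma protein genes and 18 matrix genes on the cord-labelled, liver-labelled and muscle-labelled arrays, as log2 signal minus the array's 75th percentile, with a bar over the range of each label's arrays and a point at the median. Every cord-labelled array lies above every liver-labelled array for the plasma proteins, and COL1A1 lies between -2.83 and -0.66 on the cord-labelled arrays against 4.53 to 5.12 on the liver-labelled ones.

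The liver of a newborn takes over fuel supply when the placental feed of glucose ends. Hepatocytes burn fatty acids in mitochondria and peroxisomes, make glucose, degrade amino acids and secrete most plasma proteins, including clotting and complement factors. These tasks rest on the respiratory chain and ATP synthase, which turn reduced cofactors into ATP, on ribosomes, and on the endoplasmic reticulum, where secreted proteins are folded and glycosylated. Birth weight within the normal range is of interest because low weight at birth is linked to metabolic disease in later life.

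At an adjusted p under 0.05 the 2 groups differed mainly in probes that were lower at LBW. Of 17117 probes tested with limma, 103 were lower at an adjusted p under 0.05 (0.602% of those tested) and 4 were higher (0.0234%). All 107 had every LBW array beyond every ABW array, which was true of 549 probes lower at LBW (3.21%) and 453 higher (2.65%) over the whole array. A looser threshold asked for 1.5-fold and p under 0.05 without adjustment. It was passed by 1528 probes (8.93%), of which 901 were lower (5.26%) and 627 higher (3.66%). The share of higher ones was thus 41.0%, against 54.9% when arrays were scaled to their median, 66.2% after normexp background correction, which also started from median in place of mean spot signals, and 1.09% when they were scaled to the spike-in spots, which moved the median of all probes to -0.40 (normexp: 0.29). Higher counts below therefore hold relative to the array's 75th percentile. The adjusted calls fell to 22 with normexp on median signals and to 19 with spike-in scaling. They fell to 51 without ABW replicate 3, 48 without ABW replicate 4, 67, 57, 34 and 56 without LBW replicates 1 to 4 in turn, and to 94 and 92 without ABW replicates 1 and 2. The 103 lower probes differed by between -1.70 and -4.91, with a median of -2.86 (-2.62 with probes at their bound where no LBW array was well above background), beside a median of -0.01 over all probes tested. Their median level was -2.73, -2.87, -1.78 and -1.93 on the ABW arrays and -5.78, -5.27, -4.95 and -5.20 on the LBW arrays. On the liver-labelled arrays the same probes had medians of -3.79 at ABW and -3.80 at LBW. On the muscle-labelled arrays the medians were -4.29 at ABW and -5.07 at LBW, also lower at LBW. Of the 103, 32 were not well above background on any LBW array (31.1%, against 7.23% of all probes tested), and for those a fold is given only as a lower bound. The LBW arrays had fewer probes well above background, 14594 to 15567 an array, than the ABW arrays, 15569 to 17887. Of all probes tested, 1238 were not well above background on any LBW array and 226 on no ABW array. The part of this in the lower calls was not tested. Every gene with non-overlapping groups has a two-sided exact permutation p of 0.0286, the smallest that 4 arrays against 4 allow.

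Slide and group could not be separated. All LBW arrays lay on slide 5, ABW replicates 1 and 2 on slide 4, and ABW replicates 3 and 4 on slide 6, which was scanned on another day with another version of the feature extraction software. For all 103 lower probes the LBW mean was below the ABW mean of both slides. This had to be so, since every LBW array was below every ABW array for these probes. The median difference was -2.44 against slide 4 and -3.39 against slide 6, and in 92 of the 103 the slide 6 ABW mean was the higher of the 2 (46.7% of all probes tested). With slide 4 as the only ABW arrays limma called no probe at the adjusted threshold and 715 at the looser one. All 107 kept an unadjusted p under 0.05, and their direction could not change, since their groups do not overlap. With slide 6 as the only ABW arrays 140 probes passed, and only 77 of the 107 were among them. No LBW array shares a slide with an ABW array, and slide 5 enters both of these comparisons. An effect of slide 5 therefore cannot be told apart from one of lower birth weight, and its part was not tested.

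Gene names were available for part of the array only. The array's annotation names probes by accession, and 1753 genes could be named, all from the study's own list of transcripts chosen on these arrays for a difference by birth weight and annotated against the human genome. A macaque probe thus carries the name of the human gene it resembles. The counts of named members below are therefore not independent evidence of a direction. Of the 1753 named genes, 79 were lower at the adjusted threshold (4.51%) and 4 higher, while 18.0% were lower and 16.5% higher at the looser one, and the median difference was 0.24. Groups of named genes are described beside these shares. IGF1, IGF2, IGFBP1 and ALB could not be named on the array and have no value here.

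**Figure D2:**
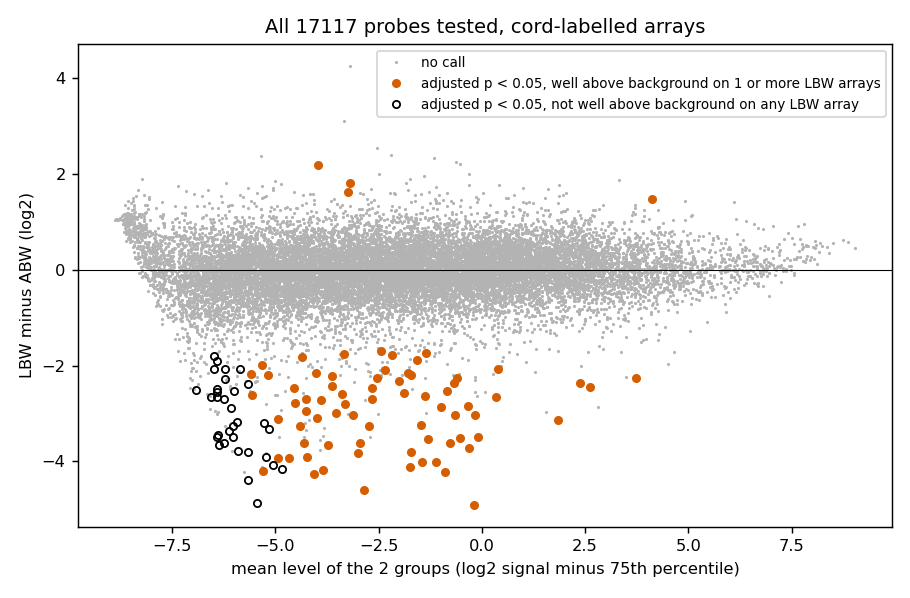
Difference LBW minus ABW (log2, vertical axis) against mean level over the 8 cord-labelled arrays (log2 signal minus the 75th percentile, horizontal axis) for all 17117 probes tested, with open circles for called probes not well above background on any LBW array. The 103 probes lower at an adjusted p under 0.05 lie between -1.70 and -4.91 and the 4 higher ones between 1.47 and 2.19.

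The most strongly lower gene was ATP5F1, a stator subunit that holds ATP synthase together. Its level was 3.31, 0.63, 2.43 and 2.70 on the ABW arrays and -3.000, -2.47, -2.42 and -2.68 on the LBW arrays. The difference of -4.91 (SE 0.51, limma adjusted p = 0.00707) is 30.0-fold, and the lowest ABW array, replicate 2, was still far above all 4 LBW arrays, which lay close together. EHHADH, the bifunctional enzyme of peroxisomal fatty acid oxidation, was -4.01, -4.37, -1.74 and -1.93 on the ABW arrays and -7.75, -8.40, -7.72 and -7.67 on the LBW arrays. It was not well above background on any LBW array and at least 12.8-fold lower there (limma adjusted p = 0.00707). Both ABW arrays of slide 6 were above both of slide 4. CNPY2, a small protein of the endoplasmic reticulum, was -1.81, -2.09, 0.87 and 0.75 on the ABW arrays and -6.49, -4.86, -4.78 and -4.51 on the LBW arrays, a difference of -4.59 (SE 0.74). It was well above background on 3 of the 4 LBW arrays. IMMP1L, a subunit of the peptidase that trims imported proteins at the inner mitochondrial membrane, was at least 9.27-fold lower at LBW.

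The other genes with the largest differences had the same form, with 4 LBW arrays below 4 ABW arrays. BNIP3L, a mitochondrial outer membrane protein that marks mitochondria for removal by autophagy, differed by -4.20 (SE 0.59). SMPDL3A, a phosphodiesterase of nucleotides and phospholipids, differed by -4.01. RNF126, a ubiquitin ligase that clears misplaced membrane proteins, differed by -3.93. Of these, BNIP3L and RNF126 were each well above background on 1 LBW array only. WDR75, a nucleolar protein needed for ribosomal RNA transcription, was at least 11.9-fold lower. LIN7C, a scaffold protein of cell junctions, was at least 9.97-fold lower, and LOC389416 at least 13.7-fold lower. Among all 107 called probes, 4 had a further probe of the same accession that did not pass. CSGALNACT2, an enzyme of chondroitin sulfate chains, was at least 4.04-fold lower on its called probe, which was not well above background on any LBW array, and differed by -0.28 on the other. RPL17, a ribosomal protein, differed by -2.25 and -1.19.

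**Figure D3:**
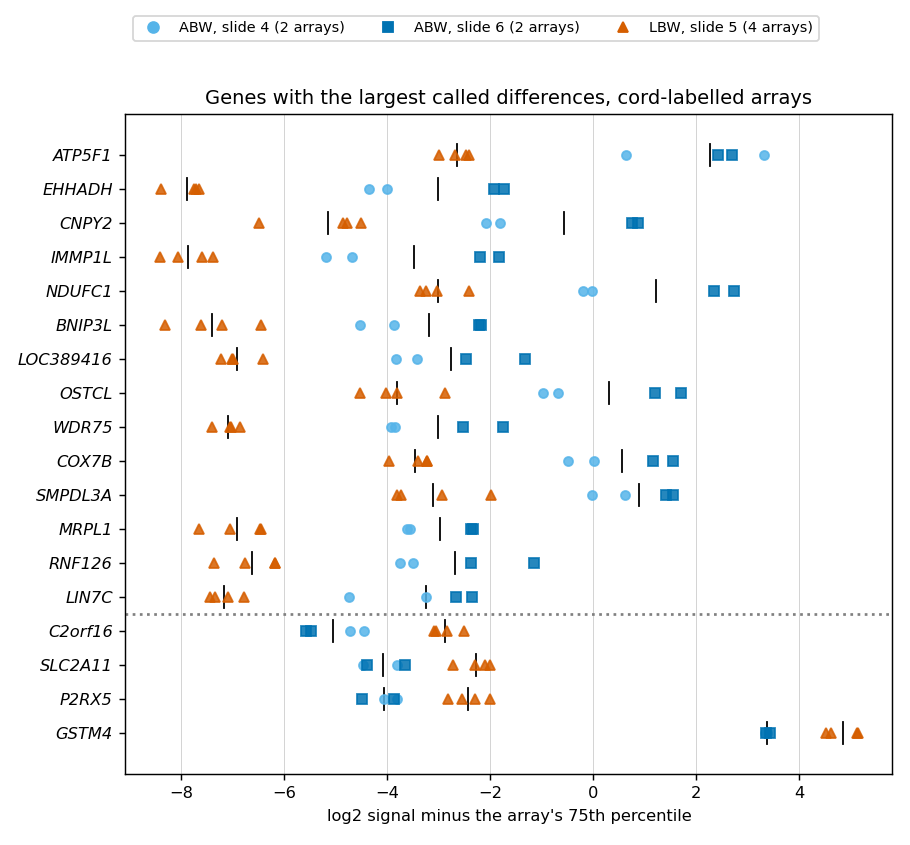
Levels of 14 of the genes with the largest lower differences and of the 4 higher genes on each of the 8 cord-labelled arrays (log2 signal minus the array's 75th percentile), by group and slide, with black ticks at the group means. The 4 LBW arrays lie beyond the 4 ABW arrays for every gene, as for ATP5F1 with a highest LBW value of -2.42 and a lowest ABW value of 0.63.

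Among the 19 groups, formed after names and values were seen, the respiratory chain and ATP synthase had the largest share of lower genes. Its named members come from the study's list, chosen for a difference by birth weight. This ranking is therefore not independent evidence. Of 14 named members, 13 had a difference below 0, 11 had all LBW arrays below all ABW arrays, 11 were lower at the looser threshold and 6 at the adjusted one, with a median of -1.25. None was higher. NDUFC1, an accessory subunit of complex I, was -0.21, -0.03, 2.74 and 2.34 on the ABW arrays and -3.36, -3.26, -2.41 and -3.04 on the LBW arrays, a difference of -4.23 (SE 0.66, limma adjusted p = 0.0198). The slide 6 ABW arrays stood above those of slide 4 here, and both pairs stood above all LBW arrays. COX7B, a small subunit of cytochrome c oxidase, was -0.50, 0.01, 1.15 and 1.54 on the ABW arrays and -3.97, -3.41, -3.23 and -3.22 on the LBW arrays, a difference of -4.01 (SE 0.46). NDUFB1, another complex I subunit, was 1.05, 1.08, 2.51 and 1.99 on the ABW arrays and -2.77, -1.41, -1.44 and -1.72 on the LBW arrays, a difference of -3.49. ATP5C1, the gamma subunit of the rotor of ATP synthase, was 0.43, 0.69, 1.65 and 0.75 on the ABW arrays and -1.92, -2.29, -1.90 and -2.54 on the LBW arrays, a difference of -3.04. In these 3 genes the gap between the groups was wider than the whole range of either group. ETFDH, which passes electrons from fatty acid oxidation into the chain, was 1.84, 1.003, 2.001 and 1.88 on the ABW arrays and -2.02, -0.74, -0.95 and -0.22 on the LBW arrays, a difference of -2.66.

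The remaining members of the chain differed less. NDUFV2 of the complex I core differed by -1.24, ATP5J of the ATP synthase stalk by -1.25 and NDUFB6 by -0.98, and each had non-overlapping groups but an adjusted p above 0.05. NDUFV3 (-0.66) and NDUFB4 (-0.61) passed the looser threshold only. CYCS, the mobile electron carrier cytochrome c, was 3.70, 3.72, 3.76 and 2.78 on the ABW arrays and 2.27, 3.17, 3.85 and 2.10 on the LBW arrays, with LBW replicate 3 above all ABW arrays. SDHD, an anchor of complex II, differed by -0.20, and UCRC, a subunit of complex III, by 0.08, each with overlapping groups and no call. Named members of complexes I, IV and V were thus among the genes called at the adjusted threshold, and the single named members of complexes II and III were not.

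**Figure D4:**
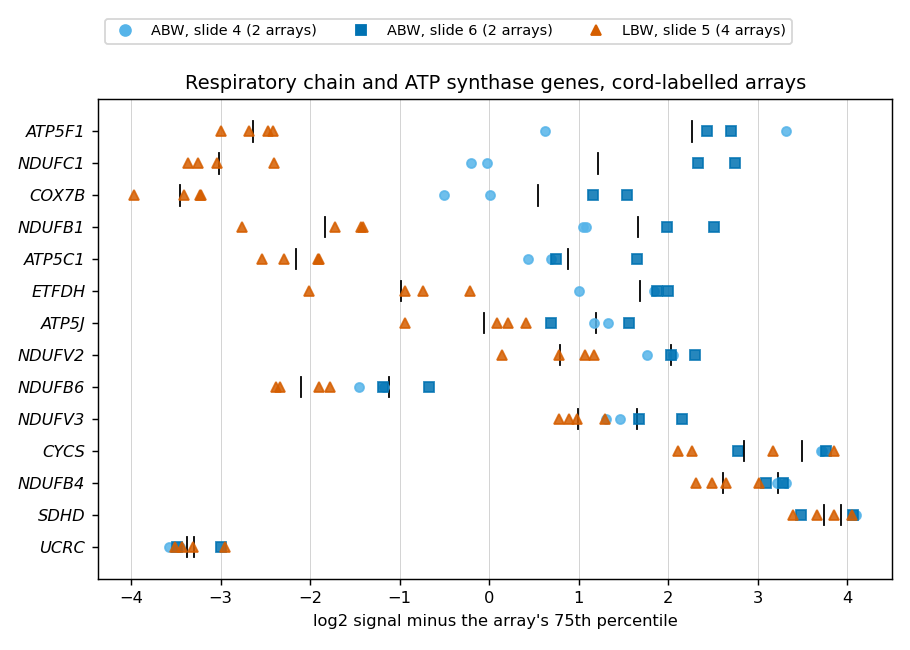
Levels of the 14 named respiratory chain and ATP synthase genes on the 8 cord-labelled arrays (log2 signal minus the array's 75th percentile), with black ticks at the group means. The LBW arrays lie below all ABW arrays for 11 genes, and the groups overlap for CYCS, SDHD and UCRC.

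Other mitochondrial genes held a smaller share of lower members. Of 10 named proteins of the mitochondrial ribosome, which translates the subunits encoded in mitochondrial DNA, 5 were lower at the looser threshold, none higher, and 9 were below 0, with a median of -0.69. MRPL1 passed the adjusted threshold and was -3.62, -3.57, -2.33 and -2.38 on the ABW arrays and -7.06, -7.66, -6.48 and -6.46 on the LBW arrays, a difference of -3.94 (SE 0.42). It was well above background on 1 LBW array. MRPL32 differed by -2.01 with separated groups and an adjusted p of 0.237. Of 6 named import factors and proteases 3 were lower and none higher, and IMMP1L alone passed the adjusted threshold. TIMM17A, a channel subunit of the inner membrane, was at -0.73 with overlapping groups.

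Genes of the ribosome and of its assembly were split. Of 9 named cytosolic ribosomal proteins 6 were lower at the looser threshold and none higher, with a median of -1.72. RPS7, a protein of the small subunit, passed the adjusted threshold at -2.44 (SE 0.39, limma adjusted p = 0.0209), with levels of 3.09, 3.38, 4.68 and 4.18 on the ABW arrays and 1.08, 1.78, 1.16 and 1.54 on the LBW arrays. RPL30 was -3.07, -2.77, 1.04 and 0.96 on the ABW arrays and -4.79, -3.97, -5.12 and -3.98 on the LBW arrays, a larger difference of -3.50 with an adjusted p of 0.235. Its ABW arrays of slide 6 stood far above those of slide 4. RPL13, by contrast, was at 1.01 with overlapping groups. Ribosomal proteins have many near-identical copies in the genome, so their probes may not be specific. Of 23 named genes of the nucleolus and ribosome assembly, 7 were lower, 3 of them at the adjusted threshold, and 5 were higher at the looser one, with a median of 0.15. Among all named genes 18% were lower and 16.5% higher at the looser threshold. NPM3, a nucleolar chaperone, differed by -3.91, and ESF1, a processing factor of the small subunit, by -3.26, and they were well above background on 2 and 3 LBW arrays. WDR75 completed the lower genes at the adjusted threshold. MDN1, the large ATPase that matures the large subunit, was 1.23, and RRP1, a pre-ribosomal RNA processing factor, 0.85, both with all LBW arrays above all ABW arrays and neither at the adjusted threshold.

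The secretory pathway, among the larger groups, held the most lower genes. Of 43 named genes 36 were below 0, 16 were lower at the looser threshold, 7 at the adjusted one, and SEC16B alone was higher at the looser one (1.51, adjusted p = 0.142). STT3B, a catalytic subunit of the oligosaccharyltransferase that glycosylates nascent proteins, was -2.96, -2.97, -1.82 and -2.25 on the ABW arrays and -6.92, -6.34, -6.10 and -5.13 on the LBW arrays, a difference of -3.62 (SE 0.43). It was well above background on 1 LBW array. OSTCL, a copy of another subunit of that complex, was -0.97, -0.68, 1.70 and 1.19 on the ABW arrays and -4.53, -4.02, -2.87 and -3.82 on the LBW arrays, a difference of -4.12, while OSTC itself was -0.88 with overlapping groups. The 2 sequences are close, so their probes may not be told apart. TXNDC11, a thioredoxin-like protein of the endoplasmic reticulum, differed by -3.61 (well above background on 3 LBW arrays), EDEM3, which trims mannose from misfolded glycoproteins, by -1.89, and UGCGL2, a relative of the glucosyltransferase that senses folding, was at least 2.81-fold lower. Of 5 named proteasome genes 2 were lower at the looser threshold and none at the adjusted one. The 2 proteasome genes of highest level, PSMC5 (0.49) and PSMA1 (-0.58), had overlapping groups. Among 4 named aminoacyl-tRNA synthetases, DARS, which charges the aspartate tRNA, was at least 4.49-fold lower (limma adjusted p = 0.0139).

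Plasma proteins of the liver differed in both directions. Of 14 named genes 6 were lower and 1 higher at the looser threshold, and 3 were lower at the adjusted one, with a median of -0.37. F13B, the carrier subunit of clotting factor XIII, was -0.29, -0.71, 1.02 and 0.68 on the ABW arrays and -3.85, -4.12, -3.01 and -3.54 on the LBW arrays, a difference of -3.81 (SE 0.43, limma adjusted p = 0.00707). CP, the copper-carrying ferroxidase ceruloplasmin, was 2.40, 0.97, 2.02 and 0.84 on the ABW arrays and -3.39, -1.96, -1.62 and -1.70 on the LBW arrays, a difference of -3.72 (SE 0.49). CFHR2, a plasma protein of the complement system, was 1.06, 0.34, 2.45 and 1.04 on the ABW arrays and -2.13, -2.65, -1.76 and -2.59 on the LBW arrays, a difference of -3.50. In all 3 every LBW array was below every ABW array, and all 8 arrays were well above background. GC, the vitamin D carrier of plasma, was -1.43, -1.45, 2.42 and 1.06 on the ABW arrays and -3.01, -3.03, -2.60 and -2.70 on the LBW arrays, a difference of -2.99 with an adjusted p of 0.217, and C4BPB, a complement regulator, differed by -2.97 (adjusted p = 0.164). LEAP2, a small hepatic peptide that opposes ghrelin, differed by -1.55. HGFAC stood apart at 1.42 (adjusted p = 0.0973) with every LBW array above every ABW array. APOA5 (0.76), CFHR3 (-0.02) and TMPRSS6, a regulator of the iron hormone hepcidin (0.53), had overlapping groups. A lower level can reflect fewer cells of a type or less RNA per cell, and the arrays cannot tell these apart.

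Enzymes of amino acid and kynurenine breakdown were likewise divided. Of 24 named genes 7 were lower, 4 of them at the adjusted threshold, and 9 were higher at the looser one, with a median of 0.35. These counts stand beside 18% lower and 16.5% higher among all named genes at the looser threshold. ACMSD, which directs tryptophan away from NAD synthesis, was -1.66, -2.23, -0.03 and -0.44 on the ABW arrays and -5.97, -4.35, -4.65 and -4.71 on the LBW arrays, a difference of -3.83 (SE 0.54), and was well above background on 3 of the LBW arrays. KYNU, an earlier enzyme of the same route, differed by -2.80, HIBCH of valine breakdown by -2.58 and NIT2 of glutamine-related breakdown by -2.08. HRSP12, a deaminase of reactive enamines, was not well above background on any LBW array and at least 8.34-fold lower, but with an adjusted p of 0.126. On the higher side, NAGS, which makes the activator of the urea cycle, was 1.42, BHMT2 of methionine metabolism 1.25, SHMT2 of mitochondrial serine metabolism 1.42 and GPT2, an alanine aminotransferase, 0.77, and none passed the adjusted threshold. For GPT2 the groups also overlapped. TAT, tyrosine aminotransferase, which is switched on in the liver around birth, was 0.10, -0.55, -0.19 and 0.92 on the ABW arrays and 0.68, 1.31, 0.99 and 0.25 on the LBW arrays, with overlapping groups and a difference of 0.74.

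Lipid, retinoid and conjugation enzymes gave 6 lower and 7 higher genes of 29 at the looser threshold, and 4 lower and 1 higher at the adjusted one, with a median of 0.24. At that looser threshold 18% of all named genes were lower and 16.5% higher. Beside EHHADH and SMPDL3A, the lower genes were CHPT1, which completes phosphatidylcholine synthesis (-3.03, limma adjusted p = 0.00707), and PECR, a peroxisomal enoyl-CoA reductase (-2.64). The higher gene was GSTM4, a glutathione transferase of drug and toxin conjugation, at 3.33, 3.38, 3.35 and 3.43 on the ABW arrays and 5.12, 4.51, 4.61 and 5.13 on the LBW arrays, a difference of 1.47 (SE 0.27). Its ABW arrays were almost equal and all LBW arrays lay above them. UGT3A1, a glycosyltransferase, was -3.79, -4.10, -3.87 and -3.44 on the ABW arrays and -3.16, 1.57, -1.26 and -2.17 on the LBW arrays, a difference of 2.55 that did not pass (adjusted p = 0.385) and became 1.603 without LBW replicate 2. CPT1C (0.92) and CYP4A22 (0.91), relatives of genes of fatty acid import and hydroxylation, also had separated groups without an adjusted call. FAAH, a hydrolase of fatty acid amides, was 0.98 and CIDEB, a lipid droplet protein of hepatocytes, 1.49 (0.91 without LBW replicate 2), each with overlapping groups.

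**Figure D5:**
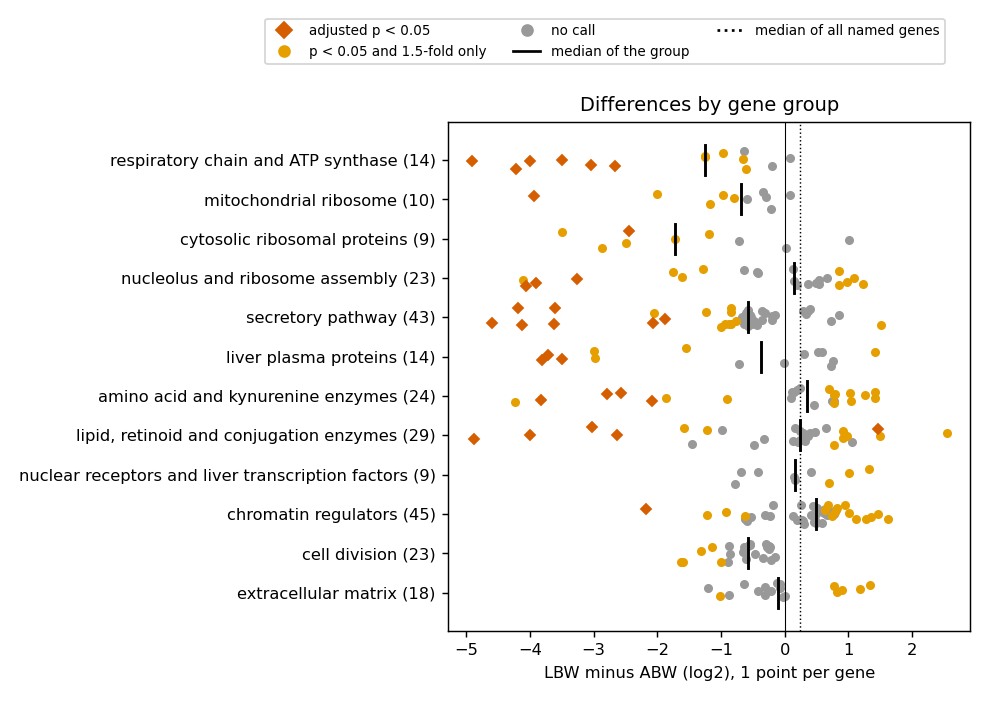
Difference LBW minus ABW (log2, horizontal axis) of every named member of 12 gene groups on the cord-labelled arrays, with a point for each gene, coloured by call, a black bar at each group's median and a dotted line at the median of all named genes (0.24). Medians run from -1.72 for cytosolic ribosomal proteins and -1.25 for the respiratory chain and ATP synthase to 0.49 for chromatin regulators.

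The other 3 genes higher at the adjusted threshold belong to no group above. C2orf16, of unknown function, was -4.74, -4.46, -5.48 and -5.58 on the ABW arrays and -3.09, -3.06, -2.85 and -2.51 on the LBW arrays, a difference of 2.19 (SE 0.33, limma adjusted p = 0.0179). SLC2A11, a member of the sugar transporter family, was -4.47, -3.82, -4.39 and -3.65 on the ABW arrays and -2.73, -2.10, -2.29 and -2.001 on the LBW arrays, a difference of 1.80 (SE 0.31). P2RX5, an ion channel opened by extracellular ATP, was -3.81, -4.06, -4.50 and -3.86 on the ABW arrays and -2.02, -2.56, -2.30 and -2.83 on the LBW arrays, a difference of 1.63 (SE 0.30). The LBW arrays of all 3 genes lay close together and above every ABW array.

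Among regulators of transcription more named genes were higher than lower at the looser threshold. Of 45 named chromatin regulators 12 were higher and 4 lower at the looser threshold, with a median of 0.49, while scaling to the spike-in spots left none of the 45 higher and 1 lower. The share of 12 in 45 stands beside the 16.5% of named genes that were higher. SIRT6, a deacetylase that restrains glycolytic genes, was 1.62 and ARID1A of the SWI/SNF remodeller 1.46, both with overlapping groups. MLL4, a histone methyltransferase, was 1.13 with all LBW arrays above all ABW arrays. KAT2A, a histone acetyltransferase, was 1.35, and 0.71 without ABW replicate 3, which stood apart from the other ABW arrays. None of these genes passed the adjusted threshold. PHF19, a Polycomb-associated protein, was lower at the adjusted threshold (-2.18, limma adjusted p = 0.0262), and was well above background on 1 LBW array. Of 9 nuclear receptors and liver transcription factors 3 were higher at the looser threshold and none lower. PPARA, the receptor that drives fatty acid oxidation and of which EHHADH is a known target, was -2.52, -2.84, -2.56 and -3.45 on the ABW arrays and -1.77, -1.92, -0.82 and -1.53 on the LBW arrays, a difference of 1.33 (adjusted p = 0.209). HNF4A, a master regulator of hepatocyte genes, was 1.01 with overlapping groups, and NR1H3, the oxysterol receptor, 0.69.

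Signalling and survival genes gave a few large lower values. RHEB, the small GTPase that activates the growth kinase mTOR, was -1.99, -1.97, -0.45 and -0.80 on the ABW arrays and -3.65, -4.28, -3.97 and -4.14 on the LBW arrays, a difference of -2.71 (SE 0.40, limma adjusted p = 0.0153). TSC2, which restrains RHEB, was 0.80 and did not pass the adjusted threshold. ADK, adenosine kinase, was -3.45, -2.16, -2.31 and -2.56 on the ABW arrays and -3.84, -6.63, -6.72 and -5.83 on the LBW arrays, a difference of -3.13 with an adjusted p of 0.0584, and LBW replicate 1 lay far above the other 3 LBW arrays. It was well above background on 2 LBW arrays. PASK, a kinase that responds to nutrients, was -8.44, -4.53, -8.96 and 0.62 on the ABW arrays and -0.25, 0.23, -4.63 and 0.35 on the LBW arrays. Its difference of 4.26 (SE 1.94, adjusted p = 0.559) was not distinguishable from the spread, since the ABW arrays alone spanned from -8.96 to 0.62. Of 18 named growth signalling genes 3 were lower and 3 higher at the looser threshold, beside 18% and 16.5% of all named genes. Among 14 autophagy and cell death regulators, BNIP3L was joined at the adjusted threshold by ATG4C, a protease of autophagosome formation (at least 6.40-fold lower), and XIAP, an inhibitor of caspases (at least 4.93-fold lower). DDX3Y, an RNA helicase encoded on the Y chromosome with a close X-linked copy, was -1.42, -1.69, -0.36 and -0.93 on the ABW arrays and -5.33, -4.07, -3.72 and -4.37 on the LBW arrays, a difference of -3.27 (SE 0.42, limma adjusted p = 0.00772). All LBW arrays were below all ABW arrays and all 8 were well above background. The study describes the neonates as female, and which transcript this probe reads was not tested.

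Several groups held no gene past the adjusted threshold. Their counts at the looser threshold stand beside 18% lower and 16.5% higher among all named genes. All 23 named cell division genes were below 0, with a median of -0.57, and 5 were lower at the looser threshold, but none under normexp background correction or spike-in scaling. CDC2, the mitotic kinase, was -1.59, well above background on 1 LBW array, and -0.82 without ABW replicate 3. UHRF1, which maintains DNA methylation, was -0.53, and both genes had overlapping groups. Among 8 hypoxia response genes none passed either threshold, with LDHA at -0.58 and HIF1A at -0.07. Of 15 chemokines and cytokine receptors 4 were lower and 2 higher. CXCL1, a neutrophil attractant, had overlapping groups and was well above background on 2 ABW arrays and on no LBW array. It passed the looser threshold with a fitted difference of -2.22, which turned to 0.1164 under normexp. The difference was -0.40 with slide 4 as the only ABW arrays and -4.04 with slide 6. The lower bound of 1.96-fold sets the mean of all 4 ABW arrays and so does not hold for each slide. IL15RA was -2.48 (adjusted p = 0.131) and well above background on 1 LBW array. JUND (0.72), IL1R2 (-0.76) and NR3C1, the glucocorticoid receptor (-0.78), had overlapping groups. Of 18 matrix genes, which would report stromal cells in the sample, 1 was lower and 5 were higher, with a median of -0.10, and COL1A1 (-0.87) and LUM (-0.03) overlapped. None of the markers listed for blood cells, endothelium or epithelium had a name here, so those cells were not analysed.

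The differences were also set against those of the other labels. In a fit of all 22 arrays, the LBW minus ABW difference on the cord-labelled arrays departed from the mean of the liver-labelled and muscle-labelled differences for 253 probes at an adjusted p under 0.05, of which 237 departed downward. The labels lie partly on different slides, and the part of the slide in this was not tested. Of the 18 genes with the largest differences reported here 14 were among them. These 18 were chosen for their difference on the cord-labelled arrays, which is part of the departure, so this count is not independent of the choice. For COX7B the departure was -3.93 (limma adjusted p = 0.000156) and for NDUFC1 -4.04. For ATP5F1 it did not pass (adjusted p = 0.0538), nor for SLC2A11, P2RX5 and GSTM4.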

How the data were processed

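RNA of 22 samples was hybridised to 1-colour Agilent arrays. The deposited files hold each spot's intensity, per the file headers after Feature Extraction's own background subtraction, and a deposited series table of log2 values made by the authors served as an alternative. The authors scaled to the 75th percentile. Here gProcessedSignal was averaged over a probe's spots without control spots, logged and set relative to the array's 75th percentile. A probe was kept when 75% or more of a group's arrays, for at least 1 of the 6 groups, had it well above background (17117 of 20217). LBW and ABW were compared on the 8 cord-labelled arrays with limma 3.58.1 in R 4.3.3 (lmFit, eBayes, no covariate, Benjamini-Hochberg adjustment over all probes kept), tested on simulated data. A bound sets the ABW mean against the higher of the array's lowest well-measured signal and the probe's own.

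None of the 19376 accessions matched the RefSeq list, so 1753 genes were named from the study's list, each by its brightest probe. Genes named were up to 15 called in each direction by size, up to 4 called members of each pathway list (otherwise up to 2 of highest level), 3 per marker list, up to 3 members against their list's direction, and PASK, ADK, DDX3Y, IGF1, IGF2, IGFBP1 and ALB. Members, lists and tests were chosen with earlier results of these data known, and the 19 groups and the genes outside the rule (such as GC, HRSP12, UGT3A1 and SIRT6) after names and values were seen. The 75th percentile was 512.6 to 2390 intensity units on ABW and 315.5 to 741.6 on LBW arrays, with no saturated spot, and the number of arrays limits the precision. Replicate numbers did not pair samples (correlations of deviations -0.22, -0.07, -0.06 and 0.30). A few genes are not reported here.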

Additional observations from a re-analysis of the deposited data

Results flagged for a closer look

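Among the 220 groups of 4 arrays of the 110 genes screened, 9 had a single array that stood apart by a gap of more than 0.829 of the group's range, and chance gives about 1 in 20. EHHADH was lowest on LBW replicate 2 (0.889 of the range), ETFDH on ABW replicate 2 (0.836) and PASK on LBW replicate 3 (0.879), and LUM was highest on ABW replicate 3 (0.898). KAT2A (0.985) and SDHD (0.937) were lowest on ABW replicate 3 and CYCS (0.944) on ABW replicate 4, while LEAP2 was highest on ABW replicate 1 (0.846) and OGDHL, a relative of the oxoglutarate dehydrogenase of the citric acid cycle, on LBW replicate 3 (0.836).

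For 14 of the 18 genes with the largest differences reported here, the LBW minus ABW difference of the cord-labelled arrays departed from the mean difference of the liver-labelled and muscle-labelled arrays at a limma adjusted p under 0.05. The 18 were picked by that same cord-label difference, so a departure is favoured by the choice. The departure was -4.86 for EHHADH, -4.41 for IMMP1L, -4.04 for NDUFC1, -3.96 for OSTCL, -3.95 for CNPY2 and -3.93 for COX7B. It was -3.76 for RNF126, -3.66 for LOC389416, -3.66 for LIN7C, -3.56 for MRPL1, -3.45 for BNIP3L, -3.44 for WDR75 and -3.41 for SMPDL3A. C2orf16 departed upward, by 1.61. For EHHADH, IMMP1L, LOC389416, WDR75 and LIN7C, which were not well above background on any LBW array of the cord label, the departure is a fitted value and its size is not measured. EHHADH was also not well above background on any liver-labelled or muscle-labelled array, so its difference under those labels is not measured either. The slides differ between the labels as well, and their part in these departures was not tested.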

How the results depend on the processing

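Under every alternative except normexp background correction, all of the 107 adjusted calls (103 lower, 4 higher) that were tested kept their direction. With normexp 89 of 107 kept it. All 107 had every LBW array beyond every ABW array, so settings that only left out, weighted or blocked arrays could not reverse it. Only settings that changed the values, by scaling or background correction, could do so. The adjusted calls numbered 22 with normexp, run on median in place of mean signals (22 lower, 0 higher), 66 with quantile normalization (64 and 2), 19 with spike-in scaling (19 and 0), 43 when probes had to be well above background on all 8 arrays (39 and 4, with 50 of the 107 tested), 89 without the filter (87 and 2), 118 with array weights (112 and 6), 483 with all 22 arrays in the fit (345 and 138), 182 with the slide as a random block (168 and 14), 0 against slide 4 as the only ABW arrays (0 and 0), 140 against slide 6 (136 and 4) and 0 with the methods' t-test after Benjamini-Hochberg adjustment. The random block had a correlation within slide of -0.118, and each slide held cord-labelled arrays of 1 group only. A negative correlation narrows the standard error of such a comparison, so the 182 calls do not allow for an effect of slide. The fit with the replicate number as a block called 65 (65 and 0), and the numbers do not pair the samples. Leaving out 1 array at a time gave 34 to 94 calls (34 to 91 lower, 0 to 3 higher).

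At the looser threshold the 1528 calls became 274 with spike-in scaling (271 lower, 3 higher), 1008 with the methods' t-test (611 and 397), 2479 with all 22 arrays (1333 and 1146), 2419 with the random block (1312 and 1107), 715 with slide 4 alone (521 and 194) and 1960 with slide 6 alone (943 and 1017), and normexp gave 420 lower and 821 higher. Leaving out 1 array gave 1111 to 1839 calls (682 to 1291 lower, 399 to 765 higher). The random block had a negative correlation within slide, and fewer samples remained where arrays were left out. Beyond these, the cause of the shifts was not tested. Among the 54 genes named by the rule, not all of which had an adjusted call, 25 lost it with normexp and 21 with spike-in scaling. With the methods' t-test 37 lost it, and 37 with slide 4 alone, which is every one that had a call.

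Of genes with no adjusted call, CXCL1 turned to 0.1164 and CENPE to 0.4775 with normexp. UHRF1 turned to 0.522 with normexp and ran from -1.013 to 0.02439 when 1 array was left out. HIF1A turned to 0.003241 with median scaling, 0.02881 with array weights and 0.1714 with slide 4 alone, and ran from -0.1575 to 0.1301 with 1 array left out. LUM turned to 0.148 with normexp, 0.04467 with median scaling, 0.05987 with quantile normalization and 0.1632 with slide 4 alone, and ran from -0.2272 to 0.1454 with 1 array left out. Signal over background limits the 32 lower probes given only as bounds.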
